A study of Mus musculus with 6 samples.

Results

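Growth arrest genes slow or stop the cell cycle when a cell is damaged or stressed. Their best known inducer is p53, a transcription factor encoded by Trp53 that is stabilized after DNA damage and then switches on inhibitors of cell division, antioxidant genes, regulators of apoptosis and its own antagonist Mdm2. A few of them, among them the GADD45 family, Cdkn1a and Btg2, are also induced without p53 by growth factors, cytokines, hormones and cellular stress, with fast and short-lived transcripts. In white fat, cell-cycle inhibitors of this kind are known from the differentiation of precursors into adipocytes and from the senescence of adipose tissue. The genes described here were chosen by symbol, as the 3 genes of the GADD45 family (Gadd45a, Gadd45b and Gadd45g) and 7 genes that p53 induces (Cdkn1a, Btg2, Mdm2, Ccng1, Trp53inp1, Sesn1 and Phlda3), with the difference between the genotypes in these same mice already known. All 10 were found among the 21456 genes of the table, and all 10 passed the filter on low values. Their levels and differences are therefore given as a description without a test. For the account below they were split by textbook knowledge into the GADD45 family, the 2 genes induced both by p53 and by other stimuli (Cdkn1a and Btg2), and 5 classical p53 targets (Mdm2, Ccng1, Trp53inp1, Sesn1 and Phlda3).

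The data are RNA-seq profiles of WATs (white adipose tissues) from 6 mice on a chow diet. The 3 control mice were Ntsr2 flox/flox. The 3 Ntsr2 AKO mice carried the same floxed alleles together with Adipoq-cre, so Ntsr2, a receptor for the peptide neurotensin, was removed in adipocytes, while the other cell types of the tissue kept the gene. The mice are named control 3, 4 and 5 and AKO 3, 4 and 5 by the numbers of their labels, and the depot, age and sex were not given in the sources used here. Levels are normalized counts, in which the reads of a gene are divided by 1 size factor for each mouse. Between 54085088 and 66098226 reads stood behind each mouse, so counting error was small for these 10 genes and the number of mice limited the precision.

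The promoters of 6 of the 10 genes are printed because they show how the members differ in the sequences near their start sites that p53 and stress signals are known to use. Each is the stretch of 250 bases before a RefSeq transcript start on GRCm38.p6, written 5′ to 3′ on the strand of the gene. Capitals mark a p53 half-site in Gadd45a, the 2 half-sites without a mismatch in Cdkn1a and the 2 half-sites of a full p53 site in Ccng1. They also mark a TATA box in Gadd45b and Gadd45g, a match to the ATF4 element in Gadd45g and a cAMP response element in Btg2.
Gadd45a (chr6:67037408-67037657, minus strand): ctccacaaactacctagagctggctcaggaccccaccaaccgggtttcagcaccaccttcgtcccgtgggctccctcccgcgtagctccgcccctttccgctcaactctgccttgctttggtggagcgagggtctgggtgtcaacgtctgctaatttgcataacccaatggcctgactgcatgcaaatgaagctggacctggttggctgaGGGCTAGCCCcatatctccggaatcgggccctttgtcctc
Gadd45b (chr10:80929841-80930090, plus strand): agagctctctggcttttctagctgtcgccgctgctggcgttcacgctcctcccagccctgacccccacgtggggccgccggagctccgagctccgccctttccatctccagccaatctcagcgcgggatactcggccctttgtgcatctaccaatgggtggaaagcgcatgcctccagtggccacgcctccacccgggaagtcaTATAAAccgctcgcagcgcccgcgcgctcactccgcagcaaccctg
Gadd45g (chr13:51846425-51846674, plus strand): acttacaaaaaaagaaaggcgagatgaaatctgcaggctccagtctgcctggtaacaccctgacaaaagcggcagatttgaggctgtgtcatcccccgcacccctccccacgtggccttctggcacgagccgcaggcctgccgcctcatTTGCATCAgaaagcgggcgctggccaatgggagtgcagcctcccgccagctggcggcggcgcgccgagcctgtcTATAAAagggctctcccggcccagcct
Cdkn1a (chr17:29090729-29090978, plus strand): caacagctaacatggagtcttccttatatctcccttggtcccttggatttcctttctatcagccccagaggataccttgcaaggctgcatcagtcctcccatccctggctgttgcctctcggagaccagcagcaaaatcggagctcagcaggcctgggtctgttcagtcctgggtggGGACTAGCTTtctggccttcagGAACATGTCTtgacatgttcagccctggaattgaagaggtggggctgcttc
Btg2 (chr1:134079156-134079405, minus strand): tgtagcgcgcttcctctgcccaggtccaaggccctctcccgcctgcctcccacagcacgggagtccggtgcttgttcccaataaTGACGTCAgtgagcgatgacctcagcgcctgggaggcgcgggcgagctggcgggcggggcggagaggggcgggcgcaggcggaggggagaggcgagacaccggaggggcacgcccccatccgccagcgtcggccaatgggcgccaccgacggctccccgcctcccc
Ccng1 (chr11:40755287-40755536, minus strand): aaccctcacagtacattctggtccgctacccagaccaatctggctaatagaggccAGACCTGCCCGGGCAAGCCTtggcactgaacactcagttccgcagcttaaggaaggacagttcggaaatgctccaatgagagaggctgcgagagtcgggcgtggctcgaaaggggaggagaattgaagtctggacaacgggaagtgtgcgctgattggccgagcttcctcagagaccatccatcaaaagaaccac

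The search covered windows of 300 bases, from 250 before to 50 after the start, on both strands. RefSeq windows were at hand for 9 of the 10 genes, 11 windows in all, since Sesn1 and Cdkn1a have 2 starts each. Trp53inp1 had no entry. A p53 half-site without a mismatch was found in 5 of the 11 windows, those of Gadd45a, Sesn1, Mdm2, Ccng1 and Cdkn1a, and in 8.36% of all 32851 mouse windows. The Gadd45a match began 40 bases before the RefSeq start and lies inside the GENCODE model of the gene, which begins further upstream. A pair of half-sites with at most 1 mismatch and at most 13 bases between them, the form of a full p53 site, was found for 2 of the 9 genes and in 0.627% of all windows. In Ccng1 it began 195 bases before the start, with no spacer and 1 mismatch. In Cdkn1a the window belongs to the upstream start of the gene, and the 2 half-sites without a mismatch are 12 bases apart. They begin 2863 and 2841 bases before the downstream start, the region where the distal p53 site of this gene is known to lie. The second of them, 51 bases before the upstream start, also directly precedes a further half-site with 1 mismatch, printed in small letters. Together these also have the form of a full p53 site, without a spacer. The windows of Gadd45b, Gadd45g, Btg2 and the classical target Phlda3 held no half-site without a mismatch, nor did the other window of Sesn1 and of Cdkn1a. Single half-sites with a mismatch were not searched for. TATAAA was present in Gadd45b and Gadd45g, 46 and 27 bases before the start, against 13.6% of all windows. TGATGNAA, the element of the stress factor ATF4, was present only in Gadd45g among the 11 windows, on the opposite strand, and in 3.97% of all windows. TGACGTCA, the cAMP response element, was present only in Btg2, 166 bases before the start, and in 1.79% of all windows. TGANTCA, the AP-1 element, and the CArG box of serum response factor were in none of the 11 windows and in 7.81% and 1.63% of all windows. CCAAT was in 8 of the 11 windows and in 37.4% of all. These letters describe the windows and show no binding, and no match to one motif overlapped a match to another.

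Before the results, 3 features of the mice need to be stated. The targeted gene Ntsr2 had normalized counts of 83.8, 64.0 and 152.5 in control 3, 4 and 5 and of 3.10, 8.29 and 0 in AKO 3, 4 and 5. Every mouse labelled as depleted was thus below every control mouse. The log2 difference of Ntsr2 was -4.81 (standard error 0.91), with an adjusted p of 0.499 in limma. The 8 skeletal muscle markers summed to 914.8 and 403.4 in control 3 and 4, 1439.9 in AKO 3, 79594.7 in AKO 4 and 174353.5 in AKO 5, and to 2420092.7 in control 5, where they made up 3.82% of all counts. The last concerns the 13 immediate early genes, which respond within minutes to stimulation or handling. They summed to 27512.6, 19017.7 and 28341.1 in control 3, 4 and 5 and to 12668.2, 10832.6 and 11506.0 in AKO 3, 4 and 5, so that the groups did not overlap. All 13 had a lower mean log2 value in Ntsr2 AKO mice, and 9 of them were lower without overlap between the groups, beside 8.16% of all genes tested. Adipocyte markers were high in every mouse, with Adipoq between 163802.6 and 220865.3, and their sum overlapped between the groups. The sums of the macrophage, lymphocyte, endothelial, progenitor, proliferation and erythroid markers overlapped as well. Of the 4 mesothelial markers, which summed to between 104.6 and 412.7 in control and between 36.3 and 75.9 in Ntsr2 AKO mice, only Krt19 exceeded the filter on low values, while Msln reached at most 20.1 and Upk3b and Wt1 were at or near 0. The 3 epithelial markers summed to between 7.22 and 148.2 in control and between 0 and 5.18 in Ntsr2 AKO mice. Log2 differences of the members and of several other genes are also given without control 5, or without control 5, AKO 4 and AKO 5, and the part that muscle RNA or immediate early stimulation plays in them was not tested.

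**Figure D1:**
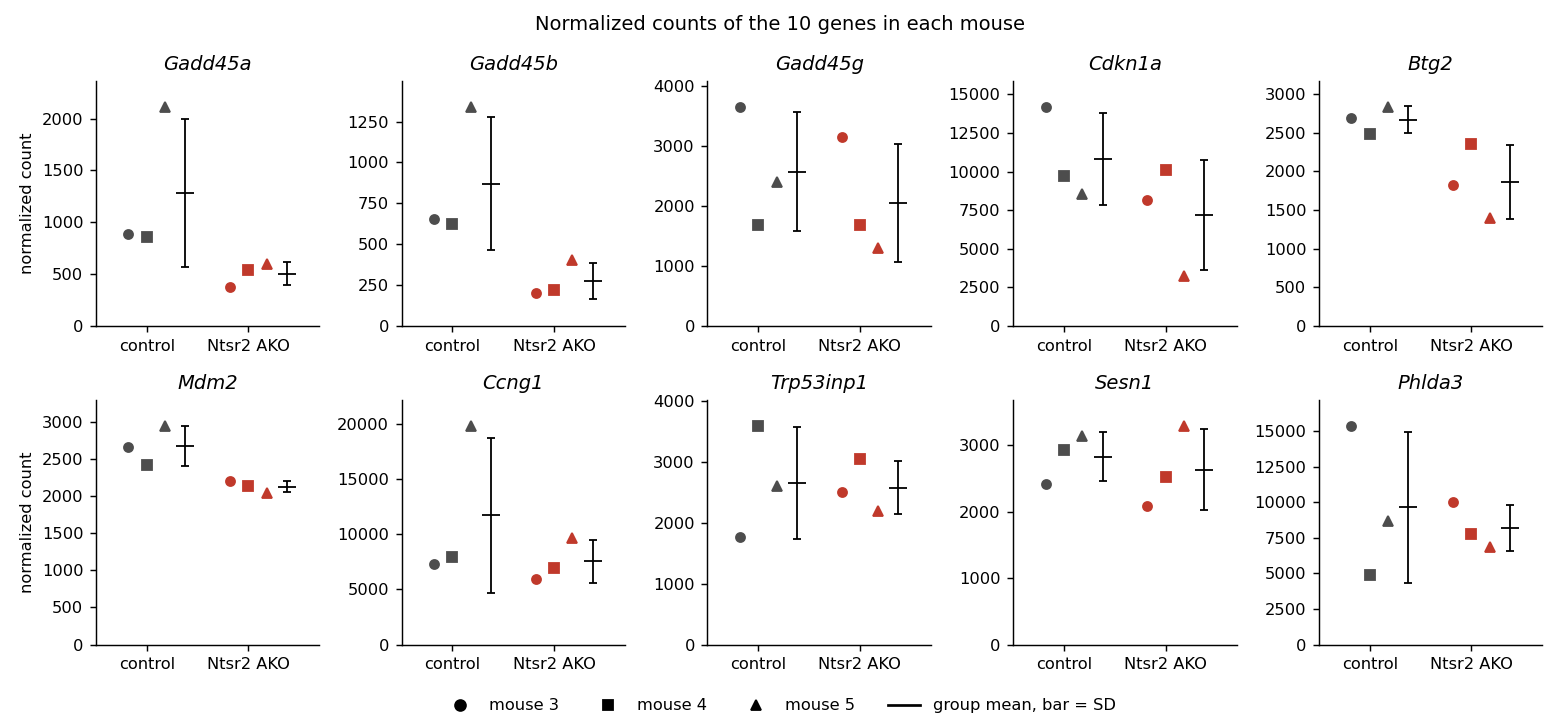
Normalized count of each of the 10 genes in the 3 control mice (grey) and the 3 Ntsr2 AKO mice (red), each axis from 0, with the number of the mouse as the symbol and the group mean ± SD as the bar. Gadd45a, Gadd45b, Btg2 and Mdm2 are lower in every Ntsr2 AKO mouse than in every control mouse, and control 5 stands far above the other mice for Gadd45a, Gadd45b and Ccng1.

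The members differed most in the GADD45 family. Gadd45a and Gadd45b were lower in all Ntsr2 AKO mice, by 2.36 and 3.11 times between the means on the log2 scale, and Gadd45g overlapped between the groups. Btg2 and Mdm2 were also lower without overlap, by 1.47 and 1.25 times. Cdkn1a was on average 1.63 times lower but overlapped, and the other classical p53 targets overlapped with differences of at most 1.42 times. In all, 4 of the 10 genes were lower in every Ntsr2 AKO mouse than in every control mouse and none was higher, beside the 8.16% of all 16157 genes tested that were lower and the 6.82% that were higher in this way. Without control 5 the same comparison held for 4 of the 10, beside 12.2% of all genes tested. Since the genes were picked with this contrast known, nothing is read from these shares. In bulk tissue, fewer cells of a type and less RNA per cell cannot be told apart.

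The GADD45 proteins are small acidic proteins that bind the kinase MAP3K4, PCNA, p21 and the CDK1 and cyclin B1 complex, and they link stress signals to p38 and JNK and to arrest at the G2/M transition. Gadd45a (chromosome 6, 67035096 to 67037457, minus strand, GRCm38) is the member that p53 induces, through an intronic site, and it also responds to DNA damage in cells without p53. Its normalized counts were 885.4, 854.2 and 2108.5 in control 3, 4 and 5 and 377.8, 540.0 and 594.1 in AKO 3, 4 and 5. Control 5 was 2.42 times above the mean of the other controls, and the highest Ntsr2 AKO mouse was 260.1 below the lowest control. The means were 1282.7 ± 715.3 (SD, n = 3) and 504.0 ± 112.6 (SD, n = 3), a log2 difference of -1.24 (standard error 0.38). Without control 5 the log2 difference was -0.81 (standard error 0.24), and without the 3 mice with muscle transcripts (control 5, AKO 4 and AKO 5) it was -1.20. Gadd45a is overlapped on the opposite strand by E230016M11Rik, and whether strand was used in counting is not stated. The level of E230016M11Rik was between 58.8 and 113.3 in the 6 mice.

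Gadd45b (chromosome 10, 80930073 to 80932204, plus strand), known as a target of NF-kB and TGF-beta signalling, showed the largest difference of the 10 genes. The normalized counts of Gadd45b were 654.4, 622.1 and 1337.2 in control 3, 4 and 5 and 199.2, 222.8 and 402.8 in AKO 3, 4 and 5. The groups did not overlap, and control 5 was again the highest mouse, at 2.10 times the mean of the other controls. The means were 871.2 ± 403.9 (SD, n = 3) and 275.0 ± 111.3 (SD, n = 3), a log2 difference of -1.64 (standard error 0.39). It was -1.28 (standard error 0.34) without control 5 and -1.67 without the 3 mice with muscle transcripts. Gadd45b is itself counted among the early response genes of many cells, and its order of mice within the control group, with control 5 highest and control 4 lowest, was also that of the immediate early sum. In the Ntsr2 AKO group the orders differed, since AKO 3 had the lowest Gadd45b and the highest immediate early sum.

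Gadd45g (chromosome 13, 51846678 to 51848468, plus strand), a cytokine-responsive member also known from the cold response of brown fat, did not follow the other two. The normalized counts were 3638.1, 1680.6 and 2390.5 in control 3, 4 and 5 and 3151.3, 1687.4 and 1290.4 in AKO 3, 4 and 5. Mouse 3 was the highest of both groups, and 2 Ntsr2 AKO mice lay within the range of the controls. The means were 2569.7 ± 991.0 and 2043.0 ± 980.1 (SD, n = 3 each), a log2 difference of -0.36 (standard error 0.39), which was -0.38 without control 5. Without control 5, AKO 4 and AKO 5 the log2 difference was 0.35, opposite in sign. Per kilobase of exon Gadd45g was nevertheless the most abundant of the family in control mice, at 2190.7 ± 844.8 normalized counts (SD, n = 3) beside 727.2 ± 405.5 for Gadd45a and 548.3 ± 254.2 for Gadd45b.

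Cdkn1a and Btg2 are the members that both p53 and stimuli without p53 induce. Cdkn1a (chromosome 17, 29090976 to 29100727, plus strand) encodes p21, the inhibitor of cyclin-dependent kinases that carries out much of the G1 arrest after p53 activation. The 6 normalized counts of Cdkn1a were 14164.9, 9693.5 and 8523.2 in control 3, 4 and 5 and 8147.1, 10135.0 and 3249.7 in AKO 3, 4 and 5. AKO 5 was far below the other mice, AKO 3 was just below the lowest control, and AKO 4 lay between control 3 and control 4. The means were 10793.9 ± 2977.4 and 7177.3 ± 3543.6 (SD, n = 3 each), a log2 difference of -0.71 (standard error 0.43) that was -0.86 without control 5 and ranged from -1.03 without AKO 4 to -0.21 without AKO 5 over the alternatives. Control 5, which was the highest mouse for both Gadd45a and Gadd45b, was the lowest control for Cdkn1a.

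Btg2 (chromosome 1, 134075170 to 134079120, minus strand) encodes an antiproliferative protein that recruits the CCR4-NOT deadenylase to transcripts and counts among the immediate early genes of growth factor signalling. The normalized counts were 2690.1, 2482.2 and 2828.0 in control 3, 4 and 5 and 1828.0, 2350.8 and 1394.6 in AKO 3, 4 and 5. The controls were close together, with a coefficient of variation of 6.53% beside 25.8% in Ntsr2 AKO mice, and AKO 4 came near to control 4. The means were 2666.8 ± 174.1 and 1857.8 ± 478.8 (SD, n = 3 each), a log2 difference of -0.55 (standard error 0.20). It was little changed without control 5 (-0.51) or without the 3 mice with muscle transcripts (-0.50).

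The 5 classical p53 targets had a median log2 difference of -0.12, beside -0.63 for Cdkn1a and Btg2, -1.24 for the GADD45 family and -0.01 for all genes tested. The family median is the value of Gadd45a. Gadd45g, at -0.36, differed less than Cdkn1a (-0.71), Btg2 (-0.55) and the classical target Ccng1 (-0.51). The median of Cdkn1a and Btg2 was -0.29 without AKO 5, the lowest mouse for both. Mdm2 (chromosome 10, 117688875 to 117710758, minus strand), the ubiquitin ligase that degrades p53 and is induced by it, was the only one of the 5 without overlap. For Mdm2 the normalized counts were 2655.2, 2417.2 and 2945.0 in control 3, 4 and 5 and 2197.6, 2131.1 and 2044.3 in AKO 3, 4 and 5. The difference was small but the mice of each group were alike, with coefficients of variation of 9.89% and 3.62%, the latter being the smallest of any member. The means were 2672.5 ± 264.3 and 2124.3 ± 76.8 (SD, n = 3 each), a log2 difference of -0.33 (standard error 0.12), which was -0.25 without control 5 and -0.21 without the 3 mice with muscle transcripts.

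Ccng1 (chromosome 11, 40748552 to 40755311, minus strand) encodes cyclin G1, which recruits the phosphatase PP2A to MDM2. Its normalized counts were 7314.8, 7978.9 and 19858.1 in control 3, 4 and 5 and 5963.0, 6978.8 and 9695.5 in AKO 3, 4 and 5. Within the Ntsr2 AKO group AKO 5, the mouse with the most muscle transcripts there, was the highest, and in the control group control 5 was 2.60 times the mean of the other controls. The log2 difference of -0.51 (standard error 0.40) came down to -0.05 (standard error 0.22) without control 5. It was -0.36 between the 2 controls and the single Ntsr2 AKO mouse without muscle transcripts.

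**Figure D2:**
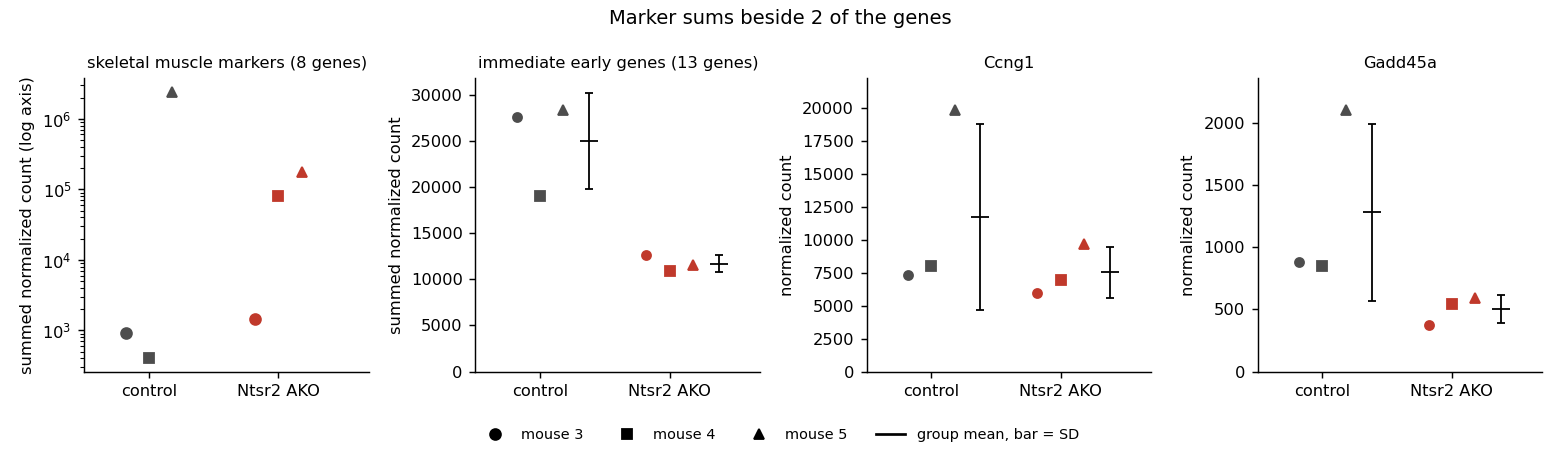
Summed normalized counts of 8 skeletal muscle markers (log axis) and of 13 immediate early genes in each mouse, beside the normalized counts of Ccng1 and Gadd45a (axes from 0), with group mean ± SD as the bar in all panels but the first. Control 5 has the highest muscle sum, 2420092.7, and the highest Ccng1 and Gadd45a, while the immediate early sums of the 3 Ntsr2 AKO mice lie between 10832.6 and 12668.2, all below the 3 control mice.

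The remaining 3 classical targets showed no separation of the groups. Trp53inp1 (chromosome 4, 11156431 to 11174379, plus strand) promotes autophagy and p53-dependent cell death. Its normalized counts were 1762.4, 3594.3 and 2610.2 in control 3, 4 and 5 and 2499.0, 3053.6 and 2187.0 in AKO 3, 4 and 5, with means of 2655.7 ± 916.8 and 2579.9 ± 438.9 (SD, n = 3 each). The log2 difference was 0.00 (standard error 0.27), 0.02 without control 5, and the lowest and the highest of the 6 values were both from control mice. Sesn1 (chromosome 10, 41809935 to 41908424, plus strand) encodes sestrin 1, which restrains mTORC1. It had normalized counts of 2415.9, 2927.9 and 3137.8 in control 3, 4 and 5 and of 2087.1, 2520.8 and 3293.2 in AKO 3, 4 and 5. AKO 3 was the lowest and AKO 5 the highest of the 6 mice, and the log2 difference was -0.12 (standard error 0.20), which was -0.04 without control 5 and -0.35 without the 3 mice with muscle transcripts. Phlda3 (chromosome 1, 135766119 to 135769136, plus strand) encodes a PH-domain protein that competes with AKT for membrane lipids. Phlda3 had normalized counts of 15364.1, 4892.2 and 8679.6 in control 3, 4 and 5 and of 10003.0, 7763.5 and 6836.4 in AKO 3, 4 and 5. The controls spread over more than the whole Ntsr2 AKO range, and the log2 difference was -0.10 (standard error 0.40) with all mice and 0.21 without the 3 mice with muscle transcripts. It was 0.31 without control 3, the highest mouse, and -0.51 without control 4, the lowest.

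**Figure D3:**
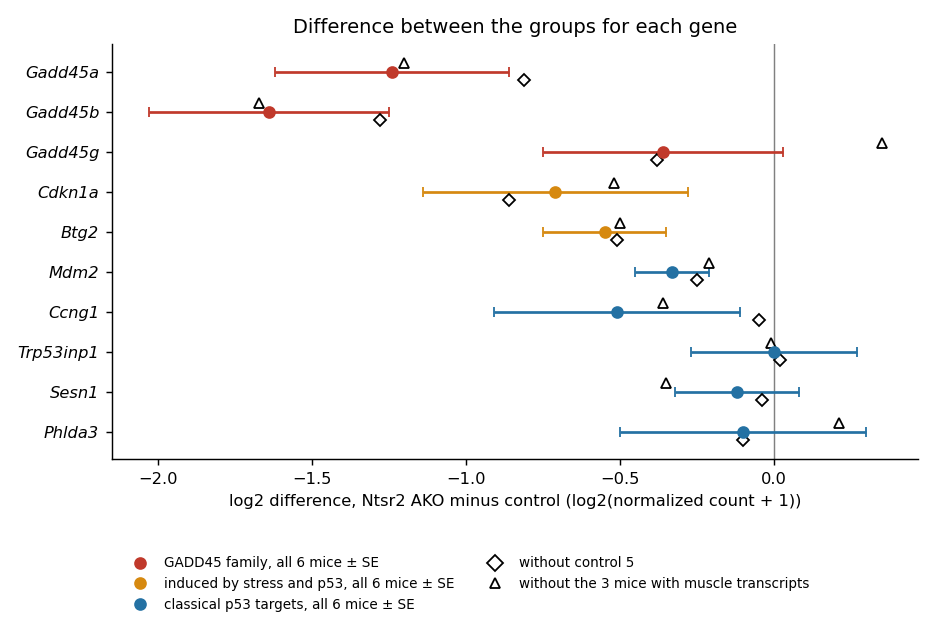
Difference between the group means of log2(normalized count + 1), Ntsr2 AKO minus control, for each gene with all 6 mice (filled circle, bar = standard error), without control 5 (diamond) and without control 5, AKO 4 and AKO 5 (triangle), coloured by group of genes. Gadd45b, Gadd45a, Cdkn1a, Btg2 and Mdm2 stay below 0 in all 3 calculations, Ccng1 comes to -0.05 without control 5, and Gadd45g and Phlda3 turn to 0.35 and 0.21 in the last.

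Compared per kilobase of exon, which allows levels of different genes to be set side by side, the members spanned a wide range in control mice. Phlda3 was highest with 6186.8 ± 3401.1 normalized counts per kilobase (SD, n = 3), followed by Ccng1 with 3336.4 ± 2009.7, Cdkn1a with 3038.0 ± 838.0 and Gadd45g with 2190.7 ± 844.8. Btg2 followed with 972.2 ± 63.5, Gadd45a with 727.2 ± 405.5, Sesn1 with 710.0 ± 93.3, Gadd45b with 548.3 ± 254.2, Mdm2 with 525.8 ± 52.0 and Trp53inp1 with 410.1 ± 141.6. Neighbours in this order overlapped in their control mice except Gadd45g and Btg2, whose control values per kilobase ranged from 1432.7 to 3101.5 and from 904.9 to 1031.0. In Ntsr2 AKO mice Gadd45b was the lowest, with 173.0 ± 70.1 per kilobase, and Gadd45a the second lowest, with 285.7 ± 63.8. Exon lengths are from GENCODE M21 and merge all transcripts of a gene, so the levels are approximate.

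The 6 mice did not rank alike for all members. On the log2 scale, with each gene centred on its own mean, the distance between 2 genes was taken as the root mean square of their differences over the 6 mice. The closest pairs were Btg2 and Mdm2 (0.232), Mdm2 and Sesn1 (0.272), Gadd45a and Gadd45b (0.296) and Gadd45g and Phlda3 (0.300). Gadd45g was thus nearer to Phlda3, with which it shared the high value in control 3, than to Gadd45a (0.903) or Gadd45b (1.038). The largest distance was between Gadd45b and Cdkn1a, 1.069. These distances describe 6 mice that share their size factors, and small distances are favoured among genes that vary little.

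**Figure D4:**
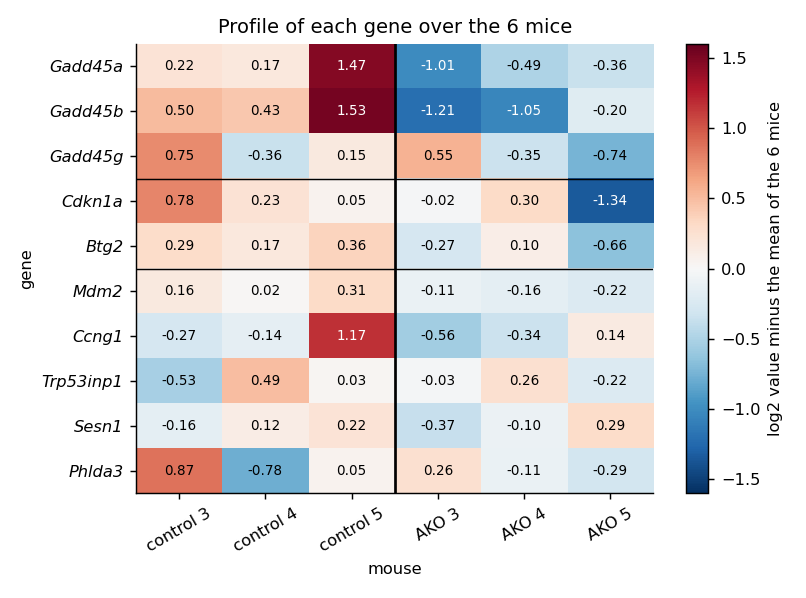
Profile of each gene over the 6 mice as the log2 value minus the mean of the 6 mice, red above and blue below the mean, with black lines between the groups of mice and of genes. Gadd45a and Gadd45b share their highest value in control 5 (1.47 and 1.53) and their lowest in AKO 3 (-1.01 and -1.21), whereas Cdkn1a is lowest in AKO 5 (-1.34) and Gadd45g and Phlda3 are highest in control 3 (0.75 and 0.87).

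The same distance was used to find the genes most like 3 members among all genes tested. Nearest to Gadd45b were S100a8 (distance 0.212), a neutrophil alarmin, Lcn2 (0.250), the iron-scavenging lipocalin 2, and Soat2 (0.284), an enzyme of cholesterol esterification, all at low counts. S100a8 had normalized counts of 54.3, 52.6 and 114.2 in control 3, 4 and 5 and of 19.6, 21.8 and 50.6 in AKO 3, 4 and 5. Gadd45a was the nearest member, at rank 5. Nearest to Cdkn1a were Agt (0.176), angiotensinogen, together with Gm20707 (0.180) and 8430408G22Rik (0.182). Agt had normalized counts of 3341.7, 1878.7 and 2018.3 in control 3, 4 and 5 and of 1773.3, 2047.1 and 912.9 in AKO 3, 4 and 5, so AKO 5 was lowest there too. The nearest member to Cdkn1a was Btg2, at rank 231. Nearest to Mdm2 were Med24 (0.007), a subunit of the Mediator complex, Gna13 (0.022), a G protein alpha subunit, and Nob1 (0.030), a factor of ribosome maturation. The distances around Mdm2 were small because its own values vary little, and its nearest member, Btg2, stood only at rank 4040.

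The question whether the wider p53 programme differed between the genotypes was put to 39 other p53 targets. They were listed for their textbook roles, but with earlier results of these data known. These genes were not members and were tested with limma in the fit over all 16157 genes. None of the 39 passed an adjusted p of 0.05, which 0.00619% of all genes tested did (1 gene, Egr1). The deleted gene Ntsr2 did not pass it either (limma adjusted p = 0.499), so missing this threshold does not show that a gene is unchanged. At an unadjusted p under 0.05, 5 of the 39 were lower in Ntsr2 AKO mice and 1 was higher, beside 5.27% and 3.08% of all genes tested. The median log2 difference of the 39 genes was -0.06, beside -0.01 for all genes tested. Of the 39, 21 were negative, beside 8236 of the 16157 genes tested. DESeq2 on the recovered reads gave 3 of the 39 an adjusted p under 0.05, beside 1.38% of all genes that it tested. By role, the 13 genes of apoptosis had a median of 0.00, the 6 of DNA repair 0.15, the 6 of arrest and feedback -0.30 and the 14 of metabolism and other functions -0.22.

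Among the apoptosis genes Aen, a nuclease induced by p53, had normalized counts of 2338.6, 1785.8 and 2231.3 in control 3, 4 and 5 and of 1482.2, 1090.4 and 949.3 in AKO 3, 4 and 5. Its log2 difference was -0.87 (standard error 0.20) with an adjusted p of 0.520 in limma and 0.0277 in DESeq2, and it was -0.46 without the 3 mice with muscle transcripts. Zmat3, an RNA-binding p53 target, was lower by 0.37 on the log2 scale without overlap (limma adjusted p = 0.562), and no gene of this list reached an unadjusted p under 0.05 in the higher direction. The effectors of p53-dependent death Bax and Bbc3 had log2 differences of 0.09 and 0.19, and Fas of 0.02. Perp and Tnfrsf10b had log2 differences of -0.83 and -0.44 and were lower without overlap, with unadjusted p of 0.113 and 0.103 in limma. Perp was at low counts, with means of 42.1 and 24.3. Of the 13 apoptosis genes, 4 were lower without overlap and 0 higher, beside 8.16% and 6.82% of all genes tested. Among the repair genes Ddb2, the damage sensor of nucleotide excision repair, was higher in all Ntsr2 AKO mice, with 410.5, 290.9 and 324.2 in control 3, 4 and 5 and 476.9, 480.9 and 534.4 in AKO 3, 4 and 5. The log2 difference was 0.55 (standard error 0.19), with an adjusted p of 0.559 in limma. All 6 genes of this list had a difference above 0, but those other than Ddb2 overlapped between the groups. Over all genes tested, 8236 of 16157 were negative. Among the arrest and feedback genes Sertad1, a regulator of CDK4, was lower by 0.71 on the log2 scale (adjusted p = 0.520 in limma and 0.0392 in DESeq2). Gdf15, a stress cytokine that reduces food intake, had a log2 difference of -1.58 (standard error 0.50, limma adjusted p = 0.532) at means of 69.1 and 23.3 normalized counts, without overlap. Without the 3 mice with muscle transcripts it was -0.75. Rap2b, a small GTPase, had the smallest p of the 39 genes, with 2323.9, 2377.0 and 2444.3 in control 3, 4 and 5 and 1554.5, 1353.7 and 1671.9 in AKO 3, 4 and 5. Its log2 difference was -0.65 (standard error 0.12), with an adjusted p of 0.499 in limma and 0.00292 in DESeq2. Bax, Bbc3, Fas, Perp and Tnfrsf10b were named after their values were seen.

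Trp53 itself (chromosome 11, 69580359 to 69591873, plus strand) had normalized counts of 1701.7, 1759.0 and 1639.4 in control 3, 4 and 5 and of 1382.1, 1208.6 and 1030.3 in AKO 3, 4 and 5. The groups did not overlap, and the log2 difference was -0.50 (standard error 0.14) with an adjusted p of 0.522 in limma and 0.144 in DESeq2. It was -0.32 without the 3 mice with muscle transcripts. p53 is controlled mainly through the stability of the protein, which was not measured, so the activity of p53 was not assessed. Mdm4, the partner of MDM2, had a log2 difference of -0.10 (standard error 0.16), and Cdkn2a, which encodes the MDM2 inhibitor ARF and the CDK inhibitor p16, was near the filter at means of 18.4 and 15.1. Of the 17 tested genes in the list of p53 and its regulators, 1 (Trp53) was lower at an unadjusted p under 0.05 and 0 were higher. Over all genes tested these shares were 5.27% and 3.08%.

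Relatives of the members, that is further genes of the same families, were tested in the same fit. Of the 12 tested, 1 was higher at an unadjusted p under 0.05 and none was lower, beside 3.08% and 5.27% of all genes tested. This was Cdkn1b, which encodes the CDK inhibitor p27, with 3016.9, 2705.0 and 3193.5 in control 3, 4 and 5 and 3752.0, 3844.4 and 4012.8 in AKO 3, 4 and 5. Its log2 difference was 0.38 (standard error 0.11, limma adjusted p = 0.522), opposite in sign to that of Cdkn1a. Btg1, the closest relative of Btg2, had a log2 difference of -0.26 (standard error 0.25). The other genes named GADD are not of the GADD45 family. Ddit3, Ppp1r15a and Gadd45gip1 had log2 differences of -0.18, -0.28 and -0.12, and none had an unadjusted p under 0.05. Ddit3 and Gadd45gip1 were named after their values were seen.

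The list of partners of GADD45 and p21 was broad and also held kinases that act in the p38 and JNK pathways, among them Map2k3 and Map2k6. Of its 21 genes, 4 were lower at an unadjusted p under 0.05 and none was higher, beside 5.27% and 3.08% of all genes tested. None of the 21 passed the adjusted threshold in limma. They were 2 kinases that activate p38, Map2k3 and Map2k6, and the D-type cyclins Ccnd1 and Ccnd2. Map2k3 had normalized counts of 3974.0, 3318.9 and 5833.4 in control 3, 4 and 5 and of 2559.9, 1907.2 and 2277.1 in AKO 3, 4 and 5, a log2 difference of -0.93 (standard error 0.23) with an adjusted p of 0.520 in limma and 0.0225 in DESeq2. It was -0.70 without control 5, the highest mouse, and -0.50 without the 3 mice with muscle transcripts. Map2k6, which was named after its values were seen, had a log2 difference of -1.05, which was -0.69 without control 5 and -0.58 without the 3 mice. Ccnd1 and Ccnd2 had log2 differences of -0.85 and -0.33 without overlap (limma adjusted p = 0.523 and 0.565), and Ccnd1 was at -0.25 without the 3 mice. Cdk2, Cdk4, Rb1 and Pcna had log2 differences of 0.37, 0.03, 0.07 and -0.13, of which Cdk4, Rb1 and Pcna were named after their values were seen. Without the 3 mice the log2 differences of Sertad1 (-0.84) and Ccnd2 (-0.44) were larger. Those of the other genes of these lists that were called lower were smaller. Calls without the 3 mice with muscle transcripts rest on 2 controls against 1 Ntsr2 AKO mouse, with the spread taken from the 2 controls alone. Why they were fewer was not tested. At an unadjusted p under 0.05 there were 2 in place of 5 lower genes among the wider p53 targets, 0 in place of 5 among the 52 tested regulators, relatives and partners, and 177 in place of 852 over all genes.

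**Figure D5:**
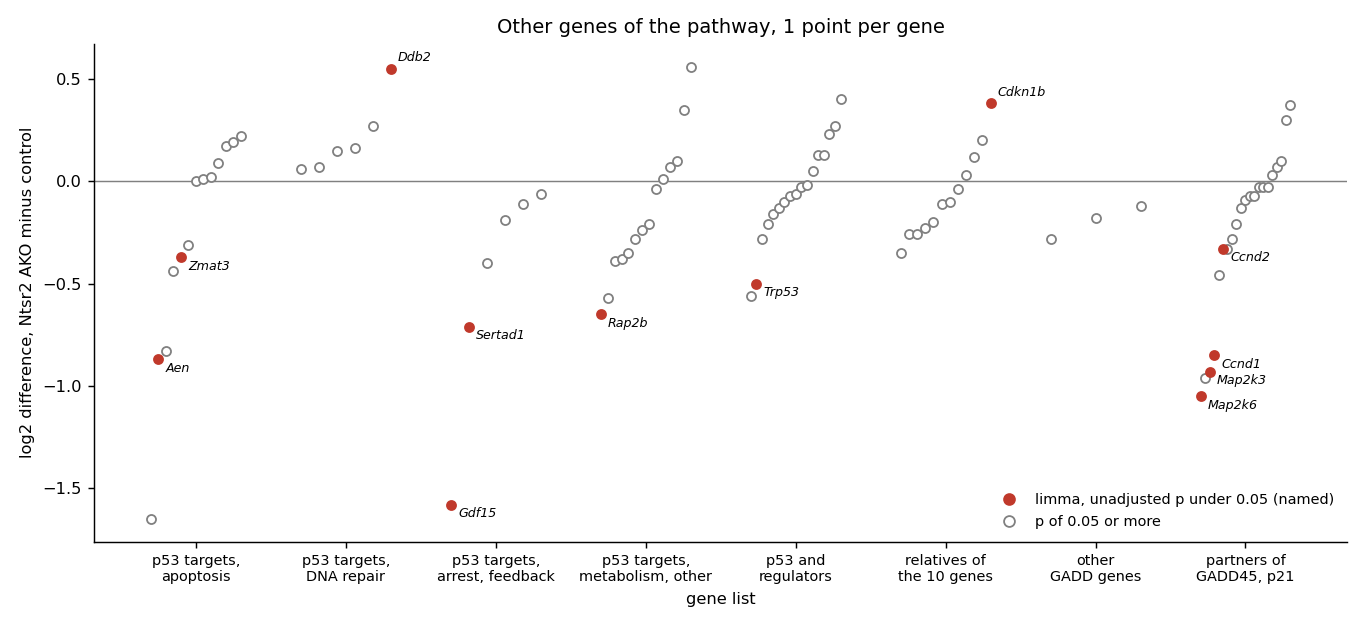
Log2 difference, Ntsr2 AKO minus control, of each tested gene of the wider pathway that is not one of the 10 members, ordered within 8 lists, with genes at an unadjusted p under 0.05 in limma filled red and named. Of the red points, Ddb2 and Cdkn1b lie above 0 and the others below, and none of them passed the adjusted threshold.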

How the data were processed

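WATs of 3 control and 3 Ntsr2 AKO mice were sequenced, and the mice were grouped by the genotype in their labels. Poly-A RNA was made into NEBNext Ultra libraries. The authors used Trimmomatic for trimming, Hisat2 for alignment and StringTie for quantification, and the submitters' processing notes name mm10. Tool versions and the strand setting are not given in the sources used here. The values deposited by the authors are a signal, namely normalized counts, that is reads divided by a size factor for each mouse, for 21456 genes. Division by the step of the low values returned whole reads for 100% of the values within 0.05, and each pair of libraries differed beyond 3 counting errors in at least 50.1% of genes, so no library was counted as a copy. No other column of values was used.

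Values were analysed in R 4.3.3 as log2(normalized count + 1). The 16157 genes with a mean of at least 10 were fitted in limma 3.58.1 over all 6 mice with no covariate (two-sided moderated test, variance trend in eBayes), with Benjamini-Hochberg adjustment over all genes and a threshold of 0.05. A fold change on this scale understates that of low genes. Nothing says whether the mice came from separate litters or batches. edgeR 4.0.16 and DESeq2 1.42.0 on the recovered reads, other pseudocounts, filters and scalings, a replicate block and the omission of each mouse were alternatives, and the omission of the 3 mice with muscle transcripts was chosen after seeing the data. The procedures were tested on simulated counts with 200 changed genes. The simulation drew each gene independently, without mice that carry muscle transcripts, and no result given here rests on it.

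The members and all gene lists were chosen with earlier results of these data known, so the members received no test and their values are no independent evidence. The genes named were all members, Trp53, Mdm4, Cdkn2a, up to 3 genes in each direction with the smallest p under 0.05 of each list (failing that, the gene with the smallest p), and the 3 genes nearest in profile to Gadd45b, Cdkn1a and Mdm2. Any other gene named is marked as named after its values were seen. Pidd1, Tigar, Cop1 and Adgre1 stand in the table under older symbols, and Phlda2 was not found. Gene models are from GENCODE M21 and promoter windows from RefSeq, both on GRCm38.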

Additional observations from a re-analysis of the deposited data

How the results depend on the processing

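The log2 differences of the 10 genes were compared over 16 alternatives, 160 values in all. The filters, the eBayes trend and the replicate block cannot change such a difference, so those values were fixed in advance. Of the 160, 158 stayed within 1 SD of the value given, the SD being the spread between mice of a group. This margin is wide, and Ccng1 at -0.05 without control 5 and Cdkn1a at -0.21 without AKO 5 still met it. The other 2 were both without the 3 mice with muscle transcripts (Gadd45g 0.35, Mdm2 -0.21). The median of all 10 genes was -0.44, and it was -0.35 after quantile normalization and -0.35 without those 3 mice. Leaving out each mouse in turn gave -0.62 to -0.30 for it, -0.40 to -0.05 for the 5 classical targets, -0.89 to -0.29 for Cdkn1a and Btg2, and -1.46 to -0.81 for Gadd45a. The 1 gene past the threshold in limma was lost (0) without a filter, without the trend, in edgeR, without any single mouse and without the 3 mice, while DESeq2 called 219. DESeq2 also called 3 of the wider p53 targets, 1 of the regulators, relatives and partners, and Ntsr2 at a log2 difference of -4.72. In limma Ntsr2 was not called (adjusted p = 0.499). At an unadjusted p under 0.05, leaving out each mouse in turn gave 414 to 1101 genes lower and 232 to 603 higher, 552 lower without control 5 and 414 lower without AKO 4. Without the 3 mice the counts were 177 lower and 75 higher, and quantile normalization gave 612 lower and 633 higher. Among the wider p53 targets the leave-one-out counts were 3 to 5 lower, with 3 without control 5, and 0 to 1 higher, with 0 without AKO 4 or AKO 5. Without the 3 mice 2 were lower and 0 higher. Among the regulators, relatives and partners they were 3 to 7 lower, with 3 without AKO 3, AKO 4, control 3 or control 5, and 1 to 2 higher, and 0 were lower without the 3 mice. Without the 3 mice the lone Ntsr2 AKO mouse is assumed to vary like the 2 controls. The cause of these changes was not tested. Whether the replicate numbers 3, 4 and 5 pair the mice is not stated. The correlations of deviations between mice of the same number were 0.45, -0.24 and 0.41. Mice of different numbers were not compared in this way, so these values cannot settle it. With the replicate block 0 genes passed the threshold, 866 were lower and 437 higher at an unadjusted p under 0.05, and 2 regulators, relatives or partners were higher in place of 1. Among the medians of the 10 genes and their groups, no value changed sign under any alternative. Depth did not limit the members, which had at least 199.2 normalized counts in every mouse, but Ntsr2, Cdkn2a and Gdf15 rest on few reads.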
